A study of Mus musculus with 20 samples.

Results

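The nuclear genes of the mitochondrial respiratory chain and of ATP synthase were examined in melb-a cells, an immortal line of mouse melanoblasts (the unpigmented precursors of melanocytes). Members were chosen by gene name, as all rows of the count table beginning with Nduf (a, b, c, s and v series), Sdha to Sdhd, Uqcr, Cox4 to Cox8 or Atp5, without rows marked as pseudogenes. The table held 84 such genes among 29956 rows. Of these, 79 reached 10 counts in at least 4 libraries and were tested, among 13639 genes tested in all. They comprised 37 genes of complex I, 4 of complex II, 8 of complex III, 13 of 18 of complex IV and 17 of complex V. The 5 members of complex IV not tested were tissue-specific isoforms: Cox4i2, Cox6b2, Cox7a1, Cox8b and Cox8c had at most 2.99, 3.21, 6.65, 4.99 and 1.00 counts in any library. Names fixed the complex, which matters for Ndufa4: it is counted here with complex I, although its protein is now placed in complex IV, and its paralogue Ndufa4l2 was counted with it. Atp5s and Atp5sl carry ATP synthase names but are not core subunits of the enzyme.

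The cells were wild type. Parental cells received no virus, and 4 other groups carried a lentiviral hairpin and were selected with puromycin: 2 control hairpins, aimed at luciferase (shLuciferase) or scrambled (shScramble), and 2 aimed at Hira, called shHIRA I and shHIRA II. The HIRA protein places H3.3, a replacement histone, into chromatin, and the comparison addresses how transcription changes when HIRA is reduced. Each group had 4 libraries of poly(A) RNA, 20 in all, described as independent replicates. All groups were grown in medium with serum, stem cell factor (SCF) and Fgf2. The labels name no clones, and they do not say whether each replicate was infected separately.

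The respiratory chain passes electrons from NADH (complex I) and succinate (complex II) through complex III to oxygen at complex IV, and complex V uses the resulting proton gradient to make ATP. Complexes I, III, IV and V are built from proteins of both genomes: a few core subunits are encoded in mitochondrial DNA and the rest in the nucleus, while complex II is wholly nuclear. Many of the nuclear genes have compact promoters with sites for NRF1, for ETS factors such as GABPA, or for YY1, and the coactivator PGC-1alpha (Ppargc1a) acts on several of these factors. In the melanocyte lineage Ppargc1a is also known to act on the pigment regulator Mitf.

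Promoter sequence was matched for 66 of the 84 members, as RefSeq windows of 250 bases before to 50 bases after a gene's start (GRCm38.p6). The NRF1 core GCATGCGC stood in 10 of these members (15.2%) and in 3.05% of 27025 genes with such a window. The ETS core CCGGAAG stood in 16 members (24.2%) and in 9.93% of genes, and the YY1 sequence AAGATGGCG in 7 members (10.6%) and in 1.64% of genes, both strands searched for each. Of the 19 members called in the knockdown comparison below, 15 had a window and 6 had a match. All 6 were lower with the hairpins against Hira, as were 15 of the 19 called. A link between a match and the direction was not tested. The 6 were Ndufs8, Uqcr11, Cox6b1, Cox8a, Atp5g2 and Atp5j. Windows of 30 bases in 4 of them are shown. Each of the 3 motifs is thus seen before the RefSeq start of a member called lower. The span of Cox6b1 given below comes from GENCODE, begins earlier than the RefSeq start, and takes in its match. Capitals mark the match, on the gene's strand in Uqcr11, Atp5g2 and Atp5j and as its reverse complement in Cox6b1. All 4 genes lie on the minus strand.
Uqcr11, ETS, chr10:80406869-80406898: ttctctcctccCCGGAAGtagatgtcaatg
Cox6b1, ETS, chr7:30626124-30626153: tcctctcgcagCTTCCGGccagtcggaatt
Atp5g2, NRF1, chr15:102671069-102671098: gctccggccgcGCATGCGCagagccttccc
Atp5j, ETS, chr16:84835019-84835048: agctgagggacCCGGAAGcacttaccctcc
Atp5j, YY1, chr16:84835045-84835074: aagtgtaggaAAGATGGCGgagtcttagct
The window of Atp5j lies beside the start of Gabpa, which is transcribed from the opposite strand, and 11.4% of the 31-base words of Atp5j transcripts also occurred in transcripts of other genes, Gabpa foremost. A match describes the letters in these windows and does not show that a factor was bound.

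Totals ran from 15.0 to 20.7 M counts per library (M, 1e6), the lowest in shHIRA I replicate 3. Hira was lower with shHIRA I (36.7 ± 8.44 CPM, SD, n = 4) than with shLuciferase (78.2 ± 12.4 CPM) and shScramble (74.0 ± 7.80 CPM), at 48.3% of the control mean (adjusted p = 5.14e-05, edgeR's quasi-likelihood test). CPM are counts per 1e6 after scaling of the library totals. In the shHIRA II-labelled libraries it was 66.7 ± 4.12 CPM, or 87.7% of the control mean, and did not pass the test (adjusted p = 0.307). Melanoblast markers were present, 7 of 9 with 10 or more counts in every library, and their summed level was 3969 to 6829 CPM in the controls, 1381 to 3969 CPM with shHIRA I, and 778 to 1340 CPM across the shHIRA II-labelled libraries. Fibroblast markers (5 genes) summed to 20.3 to 51.7 CPM in the controls, 44.0 to 114 CPM with shHIRA I and 4.85 to 8.49 CPM in those labelled shHIRA II. Schwann cell markers (3 genes) summed to 177 to 306, 61.5 to 165 and 98.7 to 120.1 CPM in the same order, and keratinocyte, leukocyte and endothelial markers reached at most 5.69, 2.04 and 14.3 CPM in any library. The part of these shifts in the members' values was not tested. The 13 mitochondrially encoded mRNAs took 6.43 to 9.96% of counts in the control libraries and 2.88 to 4.71% in those labelled shHIRA II. With shHIRA I this share was 5.74, 9.58, 1.23 and 6.27% in replicates 1 to 4, so that replicate 3 stood far below every other library.

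Members were abundant in every group. Levels on a scale per length are the authors' TPM (transcripts per 1e6). Of 1e6 TPM, members took 3.74 ± 0.230% in parental cells, 3.58 ± 0.454% with shLuciferase and 3.88 ± 0.242% with shScramble (SD, n = 4). The share was 3.49 ± 0.991% with shHIRA I and 3.72 ± 0.471% in the shHIRA II-labelled libraries. These group means lay within the spread of single groups. The deposited rows summed to only 793366 TPM (shHIRA I replicate 3) to 864638 TPM (shHIRA I replicate 2). Shares of those sums would be higher, and unevenly so between libraries. On the same scale the highest member of each complex, as a mean over all 20 libraries, was Cox4i1 (2519 TPM), which anchors complex IV assembly, then Atp5b (1866 TPM), the catalytic beta subunit of ATP synthase, Uqcrh (1214 TPM), the hinge protein of complex III, Ndufb9 (569 TPM) and Sdhc (498 TPM), a membrane anchor of complex II. The ubiquitous isoforms carried nearly all of the signal of their pairs: Cox6a1 reached 1062 TPM and the muscle isoform Cox6a2 12.0 TPM, and Cox8a reached 1522 TPM and Cox8b 0.518 TPM.

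In the HIRA knockdown comparison, the mean of both shHIRA groups against the mean of both control hairpins, 15 members fell and 4 rose. The share called was 15.0% lower and 14.1% higher among all genes tested, so lower calls were close to the background (19.0% of members) and higher calls under it (5.06%). The members' median log2 fold change was −0.17, against 0.03 over all genes. By complex, 7 of 37 genes of complex I fell and 1 rose, none of 4 of complex II passed, 2 of 8 of complex III fell and 1 rose, 4 of 13 of complex IV fell and 2 rose, and 2 of 17 of complex V fell. Since RNA came from whole cultures, fewer cells of one state and less RNA per cell cannot be told apart here or below.

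With shHIRA I alone 14 members fell and 2 rose, where 8.81% of all genes were called lower and 10.8% higher, with a median of −0.13. In the shHIRA II-labelled libraries 11 fell and 3 rose (16.6% lower and 15.7% higher among all genes), with a median of −0.10. Without replicate 1 of that group 5 fell (11.8% of all genes), without replicate 3 7 fell (14.8%) and without replicate 4 also 7 (13.8%). The 2 comparisons share their 8 control libraries. Only 2 members passed against each control with each hairpin, both of them lower, Ndufs8 and Ndufs1, where 2.44% of all genes passed in that direction. Leaving out shLuciferase replicate 3 or 4, shScramble replicate 2 or 4 or shHIRA II replicate 4 left 1 such member, and leaving out shHIRA I replicate 3 gave 4.

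**Figure D1:**
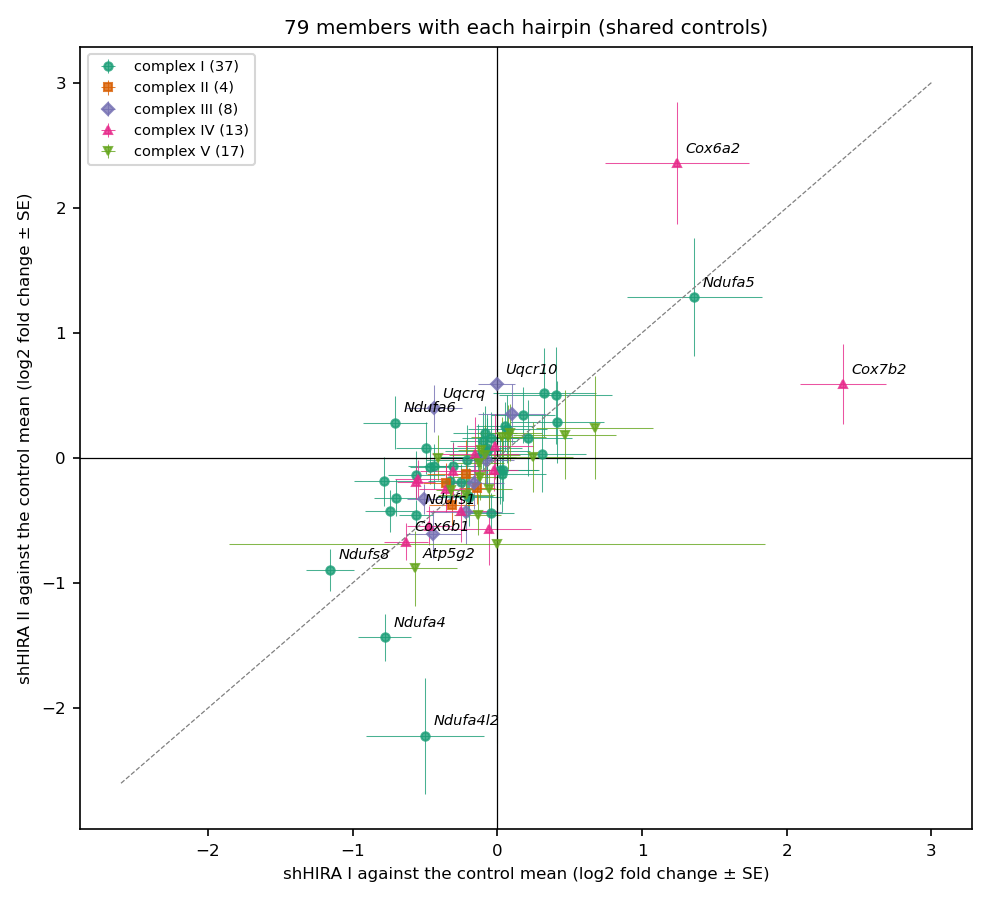
Log2 fold change (± SE from the fit) of each of 79 tested members with shHIRA I (x axis) and in the shHIRA II-labelled libraries (y axis), both against the same control libraries; the dashed line marks equal values. Ndufs8, Ndufa4, Ndufs1 and Cox6b1 lie below 0 on both axes, Ndufa5 above 0 on both, while Cox7b2 and Ndufa4l2 lie far from the line. The wide bar belongs to Atp5s, whose counts were 0 in 8 libraries.

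Among the iron-sulfur subunits of complex I, which carry electrons from NADH to ubiquinone, Ndufs8 changed most. It lies on chromosome 19 (3908863 to 3912774, minus strand, GRCm38). Its level was 68.5, 45.5, 74.2 and 68.8 CPM with shLuciferase and 75.4, 64.5, 72.1 and 72.0 CPM with shScramble. It was 37.0, 29.1, 27.1 and 27.9 CPM with shHIRA I, and 27.6, 43.3, 38.1 and 36.2 CPM across the shHIRA II-labelled libraries. All 8 shHIRA libraries lay below all 12 others, and the change was −1.03 ± 0.13 on the log2 scale (SE, adjusted p = 1.80e-05). It was called lower with each hairpin (−1.16 ± 0.17 and −0.90 ± 0.17). None of the transcript words of Ndufs8 was shared with another gene.

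Ndufs1, the largest iron-sulfur subunit (chromosome 1, 63143596 to 63176833, minus strand), stood at 229, 203, 290 and 280 CPM with shLuciferase and 199, 283, 252 and 263 CPM with shScramble. With shHIRA I it was 158, 172, 189 and 158 CPM, and in the shHIRA II-labelled libraries 184, 193, 174 and 178 CPM. The shHIRA libraries lay below all control libraries, at −0.51 ± 0.09 (adjusted p = 5.02e-04). Against parental cells, at 218, 224, 207 and 236 CPM, the shHIRA II-labelled libraries did not pass (adjusted p = 0.115).

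Ndufa4 (chromosome 6, 11900292 to 11907497, minus strand) fell more in the shHIRA II-labelled libraries than with shHIRA I. It was 142, 108, 129 and 92.9 CPM with shLuciferase, 188, 194, 156 and 163 CPM with shScramble, 100, 71.0, 70.5 and 94.2 CPM with shHIRA I, and 47.0, 77.1, 34.4 and 54.6 CPM in those labelled shHIRA II. The lowest control library, shLuciferase replicate 4, overlapped the upper shHIRA I libraries. The fold changes were −0.78 ± 0.18 and −1.43 ± 0.19, and their difference of −0.66 ± 0.21 passed (adjusted p = 0.0284) but was lost when any of 5 single shHIRA libraries was left out (adjusted p up to 0.0967). Ndufa4l2, a paralogue known to be induced in low oxygen, was at 2.26 CPM or less in every library. Its fold change was −2.22 ± 0.46 in the shHIRA II-labelled libraries (2.56 to 5.83 counts per library) and −0.50 ± 0.41 with shHIRA I.

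The other lower members of complex I were accessory subunits. Ndufb4 (−0.58 ± 0.13) and Ndufb2 (−0.51 ± 0.12), both of the membrane arm, and Ndufa12 (−0.49 ± 0.16), of the arm that faces the matrix, fell in the knockdown comparison. All 3 were called with shHIRA I (−0.74, −0.70 and −0.78) and not in the shHIRA II-labelled libraries (−0.42, −0.32 and −0.19). Ndufb4 shared 19.1% of its transcript words with other genes, led by the copy Ndufb4c, and Ndufa12 shared 20.7%, so reads of these genes may have been divided. Against parental cells the knockdown calls of Ndufb4 and Ndufa12 did not hold (adjusted p = 0.16 and 0.10).

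Ndufa5, an accessory subunit of the matrix arm (chromosome 6, 24518666 to 24528013, minus strand), was the member of complex I called higher, at 1.32 ± 0.40 (adjusted p = 0.0188). Its values were 75.1, 38.8, 415 and 59.3 CPM with shHIRA I, and 134, 281, 76.0 and 66.7 CPM across the shHIRA II-labelled libraries, against 40.1 to 82.1 CPM in the controls and 56.6 to 85.1 CPM in parental cells. Only 3 shHIRA libraries lay above the controls, and the highest of them were the 2 with the lowest mitochondrial share, 1.23 and 2.88%. Without shHIRA I replicate 3 the shHIRA I change was 0.01 ± 0.34 and was not called (adjusted p = 0.982).

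**Figure D2:**
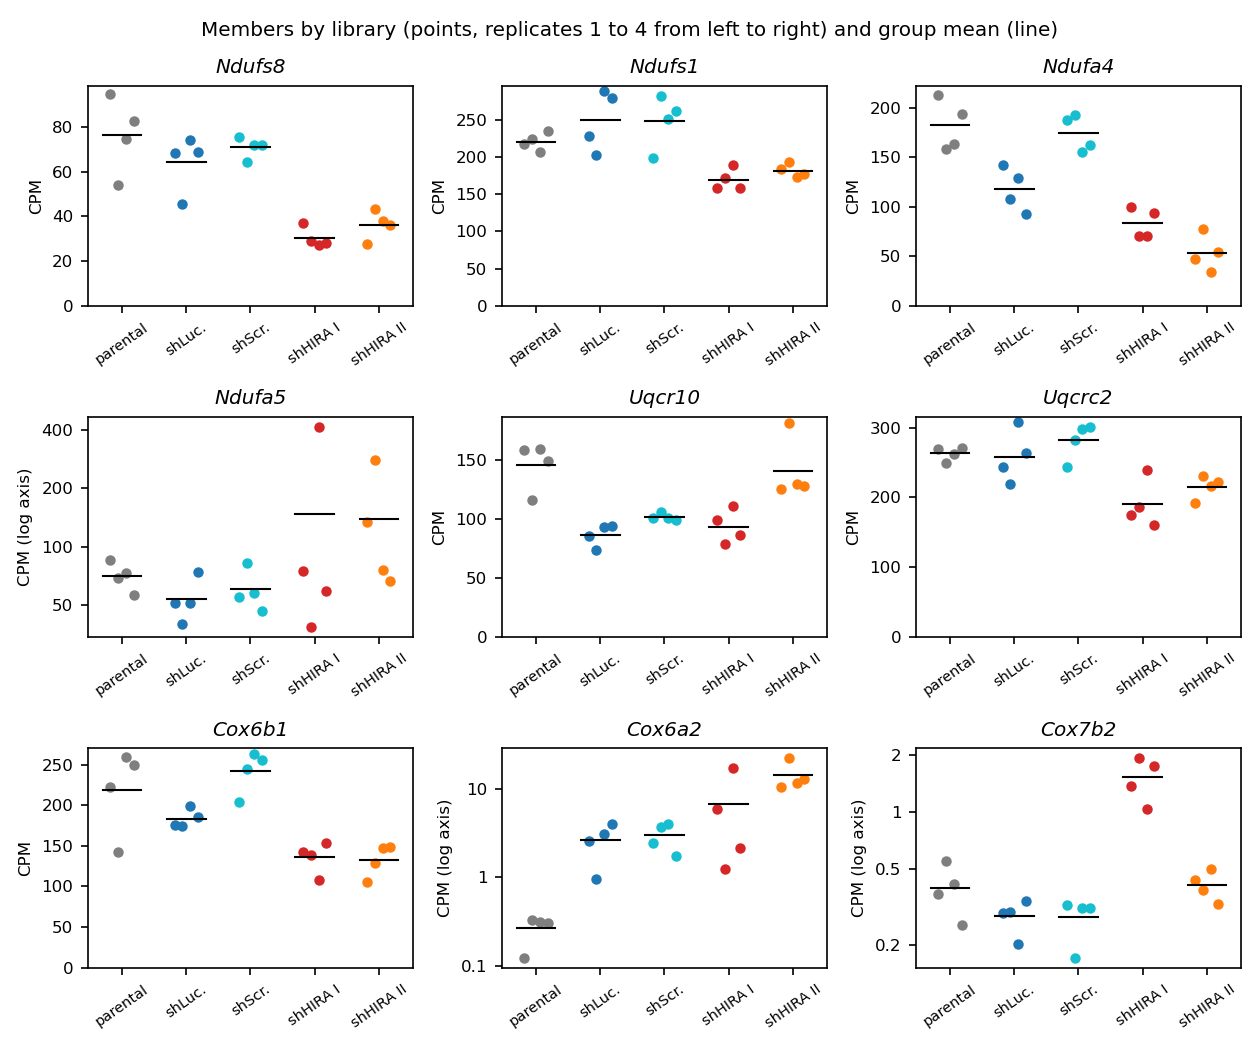
Level in CPM of 9 members in each library (points, replicates 1 to 4 from left to right within a group) with the group mean (line); the y axes of Ndufa5, Cox6a2 and Cox7b2 are logarithmic, the others start at 0. Ndufs8 separates the 8 shHIRA libraries (27.1 to 43.3 CPM) from the rest, whereas Ndufa5 is high in single shHIRA libraries.

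Complex II, which joins the respiratory chain to the citric acid cycle, had no member called. Sdha, the flavoprotein, came nearest (−0.34 ± 0.13, adjusted p = 0.0506), followed by the anchors Sdhc (−0.28 ± 0.13) and Sdhd (−0.19 ± 0.10), and the iron-sulfur subunit Sdhb gave −0.17 ± 0.22. Before adjustment 2 of the 4 had a p under 0.05. With the mitochondrial share of each library in the model all 4 were called lower. The slope calls of that model rested on shHIRA I replicate 3, as given below. The share itself was also lower in the shHIRA II-labelled libraries than in the controls.

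In complex III the core protein Uqcrc2 (chromosome 7, 120635176 to 120659524, plus strand) fell in the knockdown comparison (−0.42 ± 0.10, adjusted p = 0.00317) and with each hairpin (−0.51 ± 0.12 and −0.33 ± 0.12). Its levels with shHIRA I were 175, 185, 240 and 160 CPM, against 192, 231, 216 and 221 CPM in the shHIRA II-labelled libraries, and 219 to 308 CPM in the controls, so the ranges overlapped. Uqcr11, a small subunit, fell in the knockdown comparison (−0.52 ± 0.15) and in the shHIRA II-labelled libraries (−0.61 ± 0.19). With shHIRA I it was 75.8, 73.0 and 72.9 CPM in replicates 1, 2 and 4 and 156 CPM in replicate 3, against 103 to 151 CPM in the controls. Uqcr10, another small subunit, rose in the knockdown comparison (0.29 ± 0.10) and in the shHIRA II-labelled libraries (0.59 ± 0.13, adjusted p = 0.00157) and gave −0.00 ± 0.13 with shHIRA I. Its level in the shHIRA II-labelled libraries, 125, 182, 130 and 128 CPM, was above the controls (73.4 to 106 CPM) but within the range of parental cells (116 to 159 CPM) in 3 of 4 libraries. With parental cells as the control the knockdown value was −0.34.

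In complex IV, Cox6b1, a subunit on the intermembrane side (chromosome 7, 30616861 to 30626151, minus strand), fell with each hairpin (−0.63 ± 0.15 and −0.67 ± 0.15). It was 142, 139, 108 and 154 CPM with shHIRA I, and 105, 129, 148 and 149 CPM across the shHIRA II-labelled libraries, all below the 174 to 263 CPM of the controls. One parental library, at 143 CPM, lay within the shHIRA range. Cox8a, a small membrane subunit, fell as well (−0.51 ± 0.12), at 372, 329, 553 and 406 CPM with shHIRA I, 298, 452, 417 and 413 CPM in those labelled shHIRA II and 452 to 703 CPM in the controls. Cox7b (−0.38 ± 0.11) and Cox7c (−0.36 ± 0.13) were called in the knockdown comparison and with shHIRA I. Cox7c shared 24.5% of its transcript words with other genes.

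The members of complex IV that rose were isoforms at low levels. Cox7b2, known from testis, lies on chromosome 5 (71442824 to 71548205, minus strand). It was 1.37, 1.92, 1.04 and 1.75 CPM with shHIRA I (15.2 to 35.3 counts per library), above every other library, the highest of which was 0.550 CPM. The change was 2.39 ± 0.29 (adjusted p = 2.14e-05) and differed from that in the shHIRA II-labelled libraries by −1.80 ± 0.36 (adjusted p = 0.00165). Cox6a2, the isoform of striated muscle, lies on chromosome 7 (128205435 to 128206387, minus strand). It was 0.123, 0.330, 0.315 and 0.307 CPM in parental cells (2.01 to 6.08 counts) and 0.945 to 4.05 CPM in the control hairpin libraries. In the shHIRA II-labelled libraries it was 10.5, 22.4, 11.8 and 13.1 CPM, and with shHIRA I 5.94, 1.24, 17.4 and 2.15 CPM. The step from parental to control cells was 3.35 ± 0.67 (adjusted p = 0.00882) and that from control cells to the shHIRA II-labelled libraries 2.36 ± 0.49 (adjusted p = 0.00130). The 4 muscle markers (Ckm, Acta1, Myh7 and Mb) summed to 1.71 to 3.52 CPM in the shHIRA II-labelled libraries, 2.25 to 19.9 CPM with shHIRA I, 1.84 to 7.66 CPM in the controls and 1.49 to 3.32 CPM in parental cells. No muscle marker reached 10 counts in every library.

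In complex V, Atp5j, coupling factor 6 of the stalk, fell in the knockdown comparison (−0.29 ± 0.08, adjusted p = 0.0126) and with shHIRA I (−0.32 ± 0.10), at 254, 242, 278 and 271 CPM, below the 281 to 399 CPM of the controls. The shHIRA II-labelled libraries stood at 260.5, 321, 252 and 262 CPM, with replicate 2 inside the control range, and did not pass (adjusted p = 0.0606). Atp5g2, an isoform of the membrane ring subunit c, fell in the knockdown comparison (−0.73 ± 0.24), but 40.2% of its transcript words were shared with other genes, mainly Gm10175. The other isoform genes of subunit c, Atp5g1 and Atp5g3, were not called. Atp5c1, the central stalk's gamma subunit, was called in the shHIRA II-labelled libraries alone (−0.45 ± 0.16, adjusted p = 0.0416), and whether this differed from shHIRA I was not shown (difference −0.32 ± 0.19, adjusted p = 0.246). The catalytic subunit gene Atp5b gave 0.10 ± 0.13.

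These counts depended on shHIRA I replicate 3, the library of lowest mitochondrial share. In shHIRA I replicates 1, 2 and 4 the members' median log2 difference from the control mean was −0.40, −0.66 and −0.48, with 69, 75 and 76 of 79 members below 0. In replicate 3 it was 0.53, with 60 members above 0. Each complex showed the same split: complex I had medians of −0.41, −0.70, 0.64 and −0.55 in replicates 1 to 4, complex III −0.46, −0.57, 0.49 and −0.64, complex IV −0.42, −0.71, 0.53 and −0.49, and complex V −0.26, −0.59, 0.51 and −0.41. Complex II had the smallest spread (−0.50, −0.48, 0.23 and −0.43).

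In the shHIRA II-labelled libraries the medians over all members were −0.14, 0.36, −0.28 and −0.30. The library above 0 was replicate 2, which again had the lowest mitochondrial share of its group. The control and parental libraries ranged from −0.35 to 0.26, with mitochondrial shares from 5.50 to 9.96%.

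**Figure D3:**
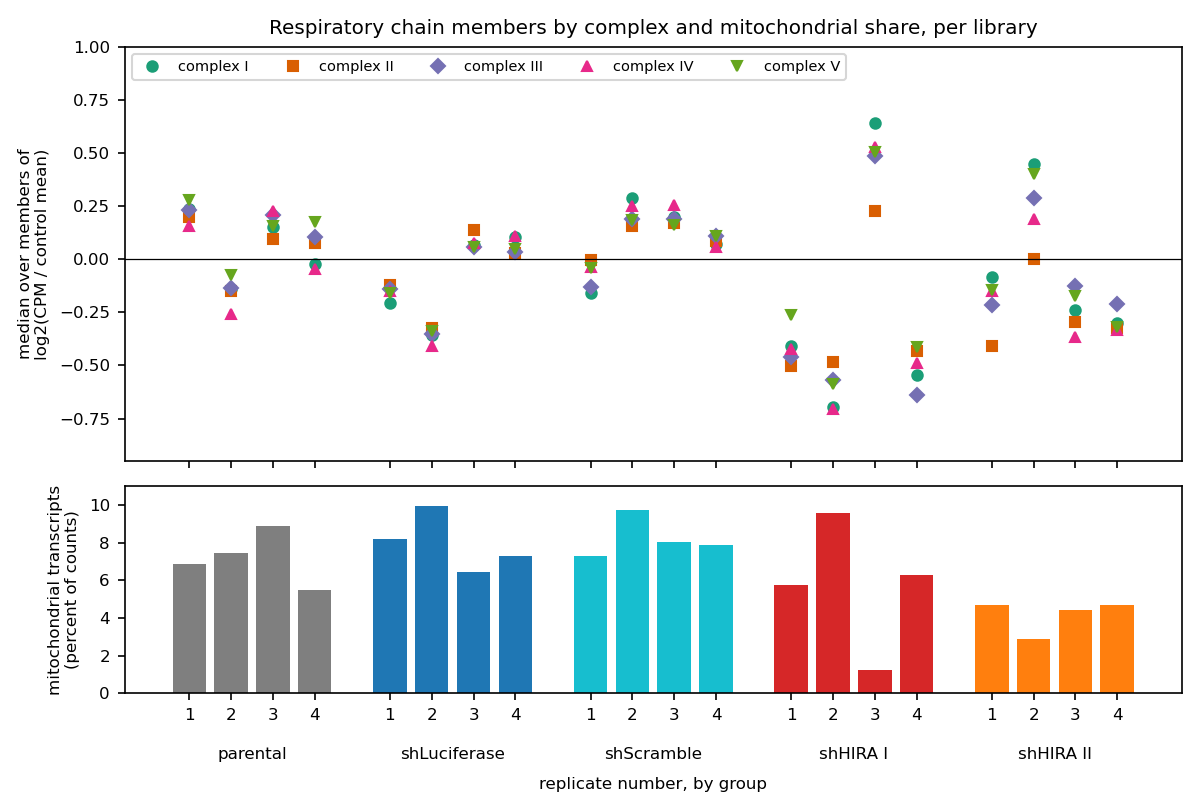
Upper panel, median over the tested members of each complex of log2 CPM relative to the control mean in each of 20 libraries; lower panel, percent of counts in the 13 mitochondrial mRNAs. shHIRA I replicate 3 and shHIRA II replicate 2 are the shHIRA libraries with all 5 complex medians above 0 (complex II of the latter at 0.00) and the lowest mitochondrial shares (1.23 and 2.88%).

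Without shHIRA I replicate 3, 43 members fell with shHIRA I and 1 rose, where 11.5% of all genes were called lower and 11.3% higher, and the median was −0.54. All 14 members called lower with 4 libraries were among the 43. By complex the lower calls were 21 of 37, 2 of 4, 6 of 8, 9 of 13 and 5 of 17 for complexes I to V. Cox4i1 moved from −0.31 to −0.71 and Ndufb9 from −0.21 to −0.87. The knockdown comparison then called 40 members lower and 2 higher (16.5% and 14.0% of all genes, median −0.30). Without both libraries of lowest share, 53 fell and 2 rose in the knockdown comparison (16.9% and 13.3% of all genes). With shHIRA I 52 then fell and 1 rose (12.4% and 11.8%), and in the shHIRA II-labelled libraries 20 fell and 3 rose (17.6% and 15.5%). Without shHIRA I replicate 2, in contrast, 9 members fell and 3 rose with shHIRA I (10.2% and 11.5% of all genes), and the median was 0.00.

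**Figure D4:**
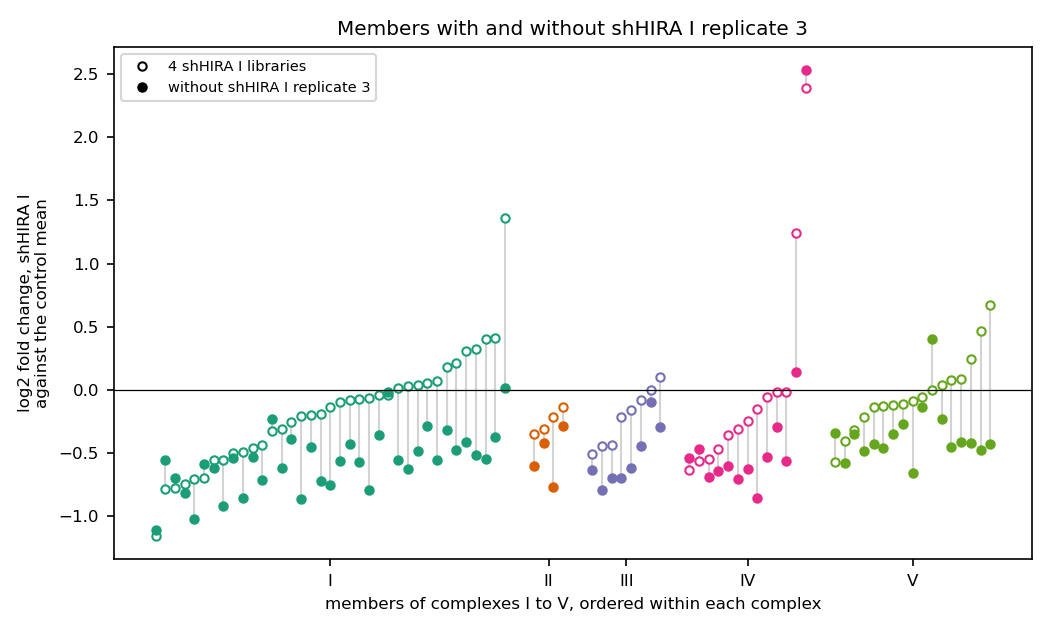
Log2 fold change of each tested member with shHIRA I against the control mean from 4 libraries (open circles) and without replicate 3 (filled circles), ordered by the first value within complexes I to V. Most filled circles lie below the open ones, and the median moves from −0.13 to −0.54.

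The relation to the mitochondrial share was fitted within groups, as the change of each gene per doubling of the share in a model that kept the group means. Of the 79 members, 59 had a slope below 0 and 1 above 0 that passed, where 15.4% and 15.6% of all genes did. The median slope was −0.40, against 0.03 over all genes. The calls covered 26 of 37 members of complex I, 3 of 4 of complex II, all 8 of complex III, 9 of 13 of complex IV and 13 of 17 of complex V. Cox6a2 (−1.13 ± 0.22) and Ndufa5 (−1.11 ± 0.16) were steepest. The calls rested on 1 library: without shHIRA I replicate 3 no member was called (0.279% of all genes were), and the median slope was −0.39. Without both libraries of lowest share, shHIRA I replicate 3 and shHIRA II replicate 2, the median slope was −0.18 and again no member was called. Of all genes 0.359% were then called above 0 and 0.0587% below 0.

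**Figure D5:**
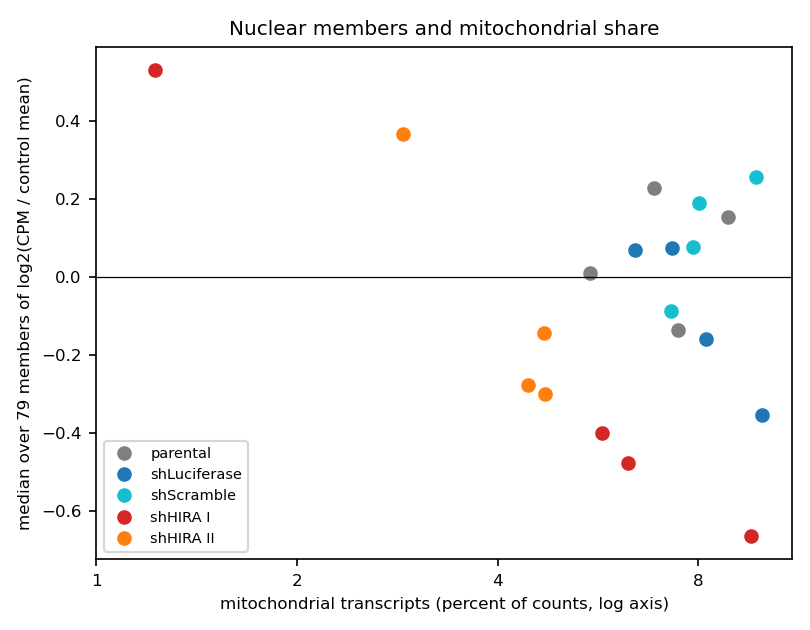
Median over 79 members of log2 CPM relative to the control mean against the percent of counts in mitochondrial mRNAs (log axis), 1 point per library. The 2 libraries of lowest share lie at 0.53 and 0.36, and the other shHIRA libraries between −0.66 and −0.14.

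With the share in the model, 59 members fell and 1 rose in the knockdown comparison (14.3% and 12.3% of all genes). With shHIRA I 58 fell and 1 rose (13.0% and 12.9%), and in the shHIRA II-labelled libraries 46 fell and 2 rose (14.9% and 13.1%). Ndufa5 was then at −0.09 and not called (adjusted p = 0.835), and Cox6a2 also lost its call (adjusted p = 0.317). Ndufs8, Ndufs1, Ndufa4, Cox6b1 and Uqcrc2 stayed called lower in the knockdown comparison in every alternative run. Other short transcripts varied beside the members. When tested genes were divided by transcript length into 5 classes of equal size, 67 members lay in the class of shortest transcripts. The other genes of that class had medians of −0.08, −0.33, 0.27 and −0.12 in shHIRA I replicates 1 to 4, and the class of longest transcripts had 0.07, 0.33, −0.46 and 0.13. In shHIRA II-labelled replicates 1 to 4 the other short genes had 0.18, 0.41, 0.03 and 0.04, all above 0. The members had −0.14, 0.36, −0.28 and −0.30 in those libraries. Cytosolic ribosomal protein genes had a median slope of −0.32, with 49 of 81 called below 0, and mitochondrial ribosomal protein genes −0.30, with 46 of 77. Length, depth and mitochondrial share moved together in replicate 3, and their parts in the members' values were not tested.

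The hairpins differed in 6 members, 3 higher and 3 lower in the shHIRA II-labelled libraries than with shHIRA I, where 8.56% and 12.4% of all genes were called higher and lower. Besides Ndufa4, Ndufa4l2 (−1.72 ± 0.50) and Cox7b2, these were Ndufa6, an accessory subunit of the matrix arm of complex I (0.99 ± 0.25, adjusted p = 0.00802), and the small complex III subunits Uqcrq (0.84 ± 0.22, adjusted p = 0.0115) and Uqcr10 (0.59 ± 0.15, adjusted p = 0.00811). Ndufa6 was 27.6, 29.5, 58.2 and 30.8 CPM with shHIRA I, and 67.8, 104, 56.7 and 61.6 CPM across the shHIRA II-labelled libraries, against 44.7 to 74.2 CPM in the controls. Without shHIRA I replicate 3 the differences called were 37 higher and 3 lower (14.9% and 17.2% of all genes).

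Between the control hairpins no member passed edgeR's quasi-likelihood test, nor did any of 13639 genes (0.00%). DESeq2 called no member either, and 3 members had an unadjusted p under 0.05. Even so, 75 of 79 members were higher with shScramble than with shLuciferase (median 0.19), and without shLuciferase replicate 2, the control library with the highest mitochondrial share, the median was 0.10. Between the control hairpins and parental cells Cox6a2 rose and Uqcr10 fell (−0.64 ± 0.13, adjusted p = 0.00766), where 2.05% of all genes rose and 1.56% fell. Uqcr10 was 159, 116, 159 and 150 CPM in parental cells and 73.4 to 106 CPM in the control hairpin libraries, without overlap.

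Against parental cells the shHIRA groups together had 14 members lower and 2 higher (11.9% and 12.4% of all genes), with a median of −0.20. With shHIRA I 13 were lower and 2 higher (6.82% and 9.93% of all genes), and in the shHIRA II-labelled libraries 7 were lower and 1 higher (14.9% and 14.4%).

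Other genes of the pathway were taken from lists. The 13 mitochondrially encoded mRNAs had a median of −0.87 in the knockdown comparison, and 9 fell. In the shHIRA II-labelled libraries 10 fell (median −1.14), and with shHIRA I 1 did (median −0.60), mt-Co2, a catalytic subunit of complex IV. mt-Nd5, of complex I, gave −1.48 ± 0.26 in the shHIRA II-labelled libraries and −0.26 ± 0.24 with shHIRA I. The shares over all genes given above for each comparison (15.0% lower and 14.1% higher in the knockdown comparison) are the background for these counts too. Of 22 other subunits and electron carriers 3 fell and none rose in the knockdown comparison: Gpd2 (−0.63 ± 0.12), which feeds electrons from glycerol phosphate, Etfa (−0.44 ± 0.13), of the electron transfer flavoprotein, and Cyc1 (−0.43 ± 0.15), cytochrome c1 of complex III. The hairpins differed in this list: 5 fell and none rose with shHIRA I (median −0.15), 5 rose and none fell in the shHIRA II-labelled libraries (median 0.18), and the difference was called in 8 genes, all higher in the latter.

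Of 48 assembly factors 9 fell and 3 rose in the knockdown comparison. With shHIRA I 10 fell and 2 rose, in the shHIRA II-labelled libraries 4 fell and 9 rose, and the difference of the hairpins was called in 10, all higher in the latter. Sdhaf1, needed for complex II, fell (−0.72 ± 0.10), as did the copper chaperone gene Sco2, which was listed at 0 in all 4 shHIRA I libraries and reached at most 4.55 CPM elsewhere, so its fitted fold is not given. No assembly factor was below −0.85 in the shHIRA II-labelled libraries, so the fall of Sco2 came mainly from shHIRA I. Nubpl (0.89 ± 0.25), an assembly factor of complex I, and Coa5 (0.68 ± 0.08), of complex IV, rose. Coa5 was 84.0 to 103 CPM with shHIRA I, and 78.1 to 91.1 CPM across the shHIRA II-labelled libraries, above the controls (48.6 to 62.3 CPM), and parental cells lay at 80.7 to 86.3 CPM.

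Among 33 genes of mitochondrial biogenesis and gene expression 2 fell and 2 rose. Ppargc1a fell (−1.01 ± 0.21, adjusted p = 0.00145), at 39.5 to 113 CPM with shHIRA I, and 40.0 to 72.9 CPM across the shHIRA II-labelled libraries, against 79.7 to 167 CPM in the controls. Lrpprc (−0.34 ± 0.09), which stabilises mitochondrial mRNAs, fell as well. Gabpb1 (0.50 ± 0.13), the partner of Gabpa, and the coactivator gene Pprc1 (0.49 ± 0.18) rose. Nrf1 (0.04 ± 0.14), Gabpa (−0.14 ± 0.20), Esrra (−0.05 ± 0.26), Tfam (0.33 ± 0.16) and Ppargc1b (−0.08 ± 0.16) were not called.

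In the citric acid cycle, which supplies the chain with NADH and succinate, 8 of 16 genes fell and none rose (median −0.31). Dlat (−1.07 ± 0.15) and Pdha1 (−0.64 ± 0.12), of the pyruvate dehydrogenase complex, and Fh1 (−0.59 ± 0.10), fumarate hydratase, were each called lower with both hairpins. The cycle's genes had a median slope on the mitochondrial share of −0.05, and 5 of 16 were called below 0. Glycolysis had 8 of 21 genes lower and none higher (median −0.28), among them Ldhb (−1.04 ± 0.20) and Pgam1, which gave −1.41 ± 0.14 with shHIRA I and 0.19 ± 0.13 in the shHIRA II-labelled libraries. Of 77 mitochondrial ribosomal protein genes 4 fell and 3 rose in the knockdown comparison. With shHIRA I 6 fell and none rose, in the shHIRA II-labelled libraries 2 fell and 19 rose, and the difference of the hairpins was called in 27, all higher in the latter.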

How the data were processed

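RNA from 20 libraries was examined, 4 in each of 5 groups. Per the submitters' processing notes, reads were handled with bcl2fastq, kallisto and edgeR on mm10; no source used here names their versions, annotation or options. The authors deposited estimated counts per gene and TPM. Over all rows the TPM summed to 793366 to 864638 per library, under 1e6. Columns named as controls without a hairpin were taken as parental, and those named shHIRA without a numeral as shHIRA I. Estimated counts were rounded, genes with 10 or more in at least 4 libraries kept, libraries scaled by TMM, and group means fitted with edgeR 4.0.16 in R 4.3.3 (quasi-likelihood test). Adjusted p is edgeR's, by Benjamini-Hochberg over all 13639 genes tested, called under 0.05. Totals were 15.0 to 20.7 M per library.

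Members, gene lists and tests were chosen with earlier results of these data known. Named members are those called in the knockdown comparison, those passing with both hairpins against both controls, up to 3 per complex for each hairpin, up to 10 for other comparisons, the highest and lowest level per complex, isoform pairs, Sdh genes and up to 5 of the steepest slopes each way. From other lists up to 4 called genes by size and the biogenesis regulators were named. mt-Co2 was named after its value was seen. Locations and shared 31-base words came from GENCODE M21 on GRCm38, and 83 of 84 members matched. On simulated data 63.5% of genes changed 2-fold were called in the knockdown comparison and 4.51% of calls were false (200 of 13639 genes changed). Each gene was drawn independently there, unlike the shifts that many members shared in shHIRA I replicate 3. These rates therefore need not hold for the calls reported. Alternatives were DESeq2 1.42.0, limma 3.58.1 on log2(TPM + 1) and log2(TPM + 0.1), other scalings and filters, parental controls, a replicate block, the mitochondrial share as a covariate and libraries left out. The spreadsheet had turned 27 gene names into dates, and these were used unnamed.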

Additional observations from a re-analysis of the deposited data

Results flagged for a closer look

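Among 230 sets of 4 values (each named member, complex or share in each group), 36 (15.7%) held 1 library that stood apart from the other three by Dixon's test. Chance gives about 1 in 20 for sets chosen without regard to their values, but these sets share their libraries and some members were named for slopes that rest on shHIRA I replicate 3, so the share is a description only. All 17 of those in shHIRA I were replicate 3, and 9 of 10 in shHIRA II were replicate 2, the libraries of lowest mitochondrial share in their groups.

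In shHIRA I replicate 3 the summed TPM reached 1294 for complex II, 4793 for complex III and 11490.1 for complex IV, each above the other shHIRA I libraries. For complex V members its levels were 3367 CPM for Atp5b, 502 CPM for Atp5e, 984 CPM for Atp5g3 and 899 CPM for Atp5h. For complex IV, Cox4i1 reached 1526 CPM and Cox6a1 751 CPM, whereas Cox7b was lowest there at 78.0 CPM. Complex I members standing apart were Ndufa5 (415 CPM), Ndufa6 (58.2 CPM), Ndufb9 (512 CPM) and Ndufc1 (166 CPM). Those of complex III were Uqcr11 (156 CPM), Uqcrfs1 (309 CPM), the Rieske iron-sulfur protein, and Uqcrh (682 CPM).

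In shHIRA II replicate 2 the mitochondrial share was low at 2.88%, and complex IV summed to 10842.5 TPM. Atp5g1 stood at 248 CPM, Atp5g3 at 579 CPM, Atp5j at 321 CPM, Cox7a2l at 340 CPM, Sdhc at 274 CPM, Uqcr10 at 182 CPM and Uqcrfs1 at 250.4 CPM, each above the other shHIRA II libraries. Atp5s, near 0 in most libraries, stood apart in shHIRA II replicate 3 (2.80 CPM), in parental replicate 4 (1.71 CPM) and in shScramble replicate 4 (4.02 CPM).

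The remaining such values were scattered. In parental cells complex IV was low at 9077 TPM in replicate 2, and in replicate 1 Cox6a2 was low at 0.123 CPM and Sdhb high at 325 CPM. With shLuciferase, replicate 2 was low for Atp5g1 (115 CPM) and Sdhb (156 CPM). With shScramble, replicate 2 was high for Cox7b (188 CPM) and low for Cox7b2 (0.172 CPM).

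Members whose response differed between the hairpins by a test of the difference (edgeR, libraries labelled shHIRA II minus shHIRA I) were Ndufa4 (−0.66), Ndufa4l2 (−1.72), Ndufa6 (0.99), Uqcr10 (0.59), Uqcrq (0.84) and Cox7b2 (−1.80).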

How the results depend on the processing

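The libraries of lowest mitochondrial share, and the share itself, moved the counts most. With the share as a covariate the knockdown comparison called 59 members lower and 1 higher (15 and 4 as reported), shHIRA I 58 lower and 1 higher (14 and 2), shHIRA II 46 lower (11), the difference of the hairpins 9 higher (3; 13.0% of all genes), and both hairpins against both controls 15 lower (2; 3.0% of all genes). Without the 2 libraries of lowest share these were 53 and 2, 52 and 1, 20 lower, 16 higher (12.0% of all genes) and 5 lower (2.73%), and no slope was called in either direction (59 below 0 and 1 above 0 as reported). With parental cells as control the knockdown comparison called 2 higher and shHIRA II 7 lower and 1 higher. With only the groups compared in the model the hairpins differed in 1 lower and 0 higher (4.79% and 2.91% of all genes) and shHIRA I had 1 higher (7.57%). DESeq2 called 5 members higher in the difference of the hairpins (10.9% of all genes), and limma on TPM with either pseudocount called 7 (9.37% and 8.78%). Limma also gave 1 lower against both controls (1.33% and 1.31% of all genes) and 1 higher with shHIRA I (12.3% and 11.8%). Over all genes limma on log2(TPM + 1) called 19.1% higher and 10.0% lower in the knockdown comparison (14.1% and 15.0% as reported). No filter on low counts also left 1 higher with shHIRA I (6.34% of all genes). The slope above 0 (Ndufa12) was lost with RLE scaling, with mitochondrial rows removed before scaling and with a linear share, each giving 0 (14.6%, 15.5% and 11.4% of all genes).

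Leaving out 1 library of the groups compared at a time gave 12 to 40 lower and 2 to 4 higher in the knockdown comparison, 9 to 43 and 1 to 3 with shHIRA I, 5 to 12 and 2 to 3 with shHIRA II, 1 to 3 lower and 2 to 37 higher in the difference of the hairpins, 0 to 60 slopes below 0 and 0 to 2 above 0, and 1 to 4 lower against both controls. The highest of the lower counts came without shHIRA I replicate 3 in the knockdown and shHIRA I comparisons (16.5% and 11.5% of all genes). The 37 higher in the difference of the hairpins came without the same library (14.9%). The 9 lower with shHIRA I came without its replicate 2 (10.2%), and the 5 lower with shHIRA II without its replicate 1 (11.8%). Since the share over all genes also moved with the library left out, the ranges alone do not describe the members. Leaving out shHIRA I replicate 3, which is in neither group of the shHIRA II comparison but enters its fit, gave 14 lower and 4 higher there. The cause was not tested.

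Direction reversed for Ndufa5 under the covariate (knockdown −0.092, shHIRA I −0.24) and for Uqcr10 against parental cells (knockdown −0.34, shHIRA II −0.047). Without the 2 libraries of lowest share the slopes of Atp5h (0.041), Cox4i1 (0.035), Ndufa12 (−0.41), Ndufa6 (0.21), Ndufc1 (0.033) and Uqcrh (0.20) reversed, as did that of Ndufa12 without shHIRA I replicate 3 (−0.25, and up to 0.45 without other single libraries). Of the other values of single genes, 736 kept direction and call and 95 lost the call under the alternatives, and 1107 and 160 did so when 1 library was left out.

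Pairing by replicate number was not established: same-numbered pairs correlated from −0.30 to 0.42, with 7 of 10 pairs above 0.1 for replicate 1 and 2 of 10 for replicate 3, though 13 of 20 libraries correlated best with their own number, a hint from the data and not from the design. With a replicate block the knockdown comparison called 16 lower and 4 higher (16.6% and 15.4% of all genes), shHIRA I 16 and 1 (10.3% and 11.4%), shHIRA II 12 and 2 (17.7% and 17.5%), the difference of the hairpins 3 and 4 (13.0% and 10.1%), and the slope 55 and 2 (15.1% and 15.9%). Depth limited isoforms with few counts (Cox7b2, Ndufa4l2, Cox6a2 and Atp5s), and counting error was not separated from replicate spread.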
